A study of Mus musculus with 28 samples.

Results

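Microtubules are hollow filaments built from dimers of alpha-tubulin and beta-tubulin. In the cleaving embryo they form the mitotic spindle and carry cargo between cell divisions. Several genes encode near-identical alpha and beta subunits, called isotypes, and their proteins mix in the same filament. Tubulin messenger RNA is also controlled by the protein it encodes. When free dimers are plentiful, the factor TTC5 recognises the first amino acids of a tubulin chain as it leaves the ribosome, and the messenger RNA being translated is degraded. Described here are 9 tubulin genes in single mouse embryos with and without the chromatin factor CTCF. They are the beta-tubulin genes Tubb5, Tubb4b, Tubb2a, Tubb2b, Tubb3 and Tubb6, and the alpha-tubulin genes Tuba1a, Tuba1b and Tuba1c. All 9 were found by their Ensembl identifiers in both deposited tables, of 15582 genes in blastocysts and 16745 genes in morulae. The genes were selected by family, with results from these same embryos in view, and which measured values entered that choice is not recorded. The test results below are therefore a description of these genes and not independent support for their choice.

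RNA was sequenced from single whole CD1 embryos, either morulae or blastocysts. The blastocysts were 3 labelled WT_flfl, 4 labelled het, 4 labelled M_KO and 3 labelled MZ_KO. The morulae were 3 labelled het, 4 labelled del and 6 labelled MZKO. These codes are not explained in the labels, which give neither the Cre driver nor the embryos that share a mother. Sample titles carry a prefix that WT_flfl and het blastocysts share and another that M_KO and MZ_KO blastocysts share. Another prefix belongs to MZKO morulae, and another is shared by del and het morulae. Of the comparisons of MZ_KO or MZKO embryos, only MZ_KO against M_KO lies within a shared prefix. In the others, the group label and the prefix cannot be told apart. Among the libraries with a column in the tables, all blastocysts were sequenced in 1 batch and all morulae in another, and the tables were scaled separately. Stage and batch therefore cannot be told apart in these values. Levels are given as counts per 1000000 reads (CPM).

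The library totals ran from 7377302 to 27883060 reads in blastocysts. In morulae they ran from 12136606 to 20414013 reads, except for del 6, which had 1635553. Ctcf itself lay between 2.92 and 4.22 CPM in the MZ_KO blastocysts, against 53.2 to 102 CPM in the other blastocysts. In morulae it lay between 0 and 5.81 CPM in del, between 0 and 8.68 CPM in MZKO, and between 26.1 and 54.6 CPM in het. The morulae het 1 and MZKO 1 stood apart: 416 and 402 genes were at 0 reads in them, against 1358 to 4587 in the other morulae. The oviduct and ciliated cell markers summed to 1444 CPM in het 1 and 3017 CPM in MZKO 1, and to between 1.17 and 468 CPM in the other morulae. The blood markers summed to 15542 and 4087 CPM, against 7.41 to 1306 in the others. The granulosa and cumulus markers summed to 148 and 28.8 CPM, against 1.00 to 13.9. Genes of mitotic phases summed to 2409 and 2835 CPM, against 4975 to 7090. The blastocysts WT_flfl 1 and het 6 had 471 and 314 genes at 0 reads, against 956 to 1973 elsewhere, and blood marker sums of 34491 and 31495 CPM.

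The start of the coding sequence is shown because it encodes the residues that the autoregulation pathway reads, and because it separates the alpha from the beta genes. Each line gives the first 12 coding bases, 5′ to 3′, with codon 4 in capitals, from the GENCODE M21 annotation of GRCm38.
Tubb5: atgagggaaATC
Tubb4b: atgagggagATC
Tubb2a: atgcgcgagATC
Tuba1b: atgcgtgagTGC
Codon 4 was ATC in the beta genes shown and TGC in the alpha gene. The Tubb5 start lies on the minus strand at chr17:35838042-35838053, the Tubb4b start on the minus strand at chr2:25224579-25224590, and the Tubb2a start on the minus strand at chr13:34077918-34077929. An intron splits the first codons of Tuba1b, so no single interval is given for it.

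The end of the coding sequence is shown because it encodes the acidic tail in which isotypes differ most, and because it shows which genes short reads can tell apart. Each line gives the last 60 coding bases, 5′ to 3′, with the stop codon in capitals.
Tubb5: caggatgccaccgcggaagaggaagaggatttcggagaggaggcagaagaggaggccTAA
Tubb4b: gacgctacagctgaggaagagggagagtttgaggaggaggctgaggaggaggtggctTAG
Tubb2a: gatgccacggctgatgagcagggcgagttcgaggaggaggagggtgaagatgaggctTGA
Tubb2b: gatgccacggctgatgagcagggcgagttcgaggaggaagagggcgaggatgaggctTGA
Tuba1c: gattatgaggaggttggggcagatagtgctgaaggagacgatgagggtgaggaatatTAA
These runs lie in the last exon of each gene. The Tubb5 run is at chr17:35834982-35835041, Tubb4b at chr2:25222308-25222367, Tubb2a at chr13:34074468-34074527 and Tubb2b at chr13:34127471-34127530, all on the minus strand. The Tuba1c run is on the plus strand at chr15:99037950-99038009.

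Coding identity was 80.3% to 96.5% over the 15 pairs of beta genes, 97.1% to 98.3% over the 3 pairs of alpha genes and 56.0% to 58.5% over the 18 mixed pairs. Tubb2a and Tubb2b were the closest beta pair. The authors' counting may split reads between such copies, and the share of 50-base windows that a gene shares exactly with other annotated transcripts shows where. It was 0.115% for Tubb5 and 0% for Tubb3 and Tubb6. It was 55.5% for Tubb4b, 49.6% for Tubb2a and 39.3% for Tubb2b. It was 75.5% for Tuba1a, 83.1% for Tuba1b and 61.0% for Tuba1c. Levels of Tubb5 therefore rest on sequence that is almost all its own, while the split between the alpha genes is uncertain. Tubb4b also overlaps Fam166a on the other strand, and Tuba1b overlaps the antisense gene Gm41396. Reads of these pairs cannot be told apart where they overlap, because strand is not marked by the kit. Tubb3 overlaps Gm20388 on the same strand, and Tuba1a and Tuba1b overlap Gm49450 on the same strand, so the counting could split reads there too.

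Per kilobase of exon, which makes levels comparable between genes, WT_flfl blastocysts expressed Tuba1b most, at 501 ± 12.2 CPM per kb (SD, n = 3), followed by Tubb4b at 423 ± 81.1 CPM per kb. Tuba1c followed at 301 CPM per kb and Tubb5 at 108 CPM per kb. Tuba1a stood at 51.0, Tubb2a at 33.9 and Tubb6 at 12.7 CPM per kb. Tubb2b, at 0.443 CPM per kb, and Tubb3, the neuronal beta-tubulin, at 0.102 CPM per kb, were near the limit of detection. The ranges of Tuba1b and Tubb4b overlapped, as did those of neighbours from Tubb5 to Tubb6, so those places in the order are not separated by the embryos. Het and M_KO blastocysts had the same order of the 7 leading genes.

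In MZ_KO blastocysts the order was different. Tubb4b led at 468 CPM per kb, Tuba1b followed at 366 and Tuba1c at 299 CPM per kb, and the last pair overlapped. Tuba1a, at 81.8 CPM per kb, and Tubb2a, at 67.3 CPM per kb, now stood ahead of Tubb5, at 28.1 CPM per kb. Tubb5 overlapped Tubb6, at 26.8 CPM per kb. In morulae Tubb4b had the highest mean in each group, at 257 CPM per kb in het, 275 in del and 337 in MZKO. Tuba1b was second, at 171, 121 and 298 CPM per kb. The ranges of Tubb4b and Tuba1b overlapped in het and MZKO morulae and were separate in del. The plot of every gene in every embryo shows these levels.

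**Figure D1:**
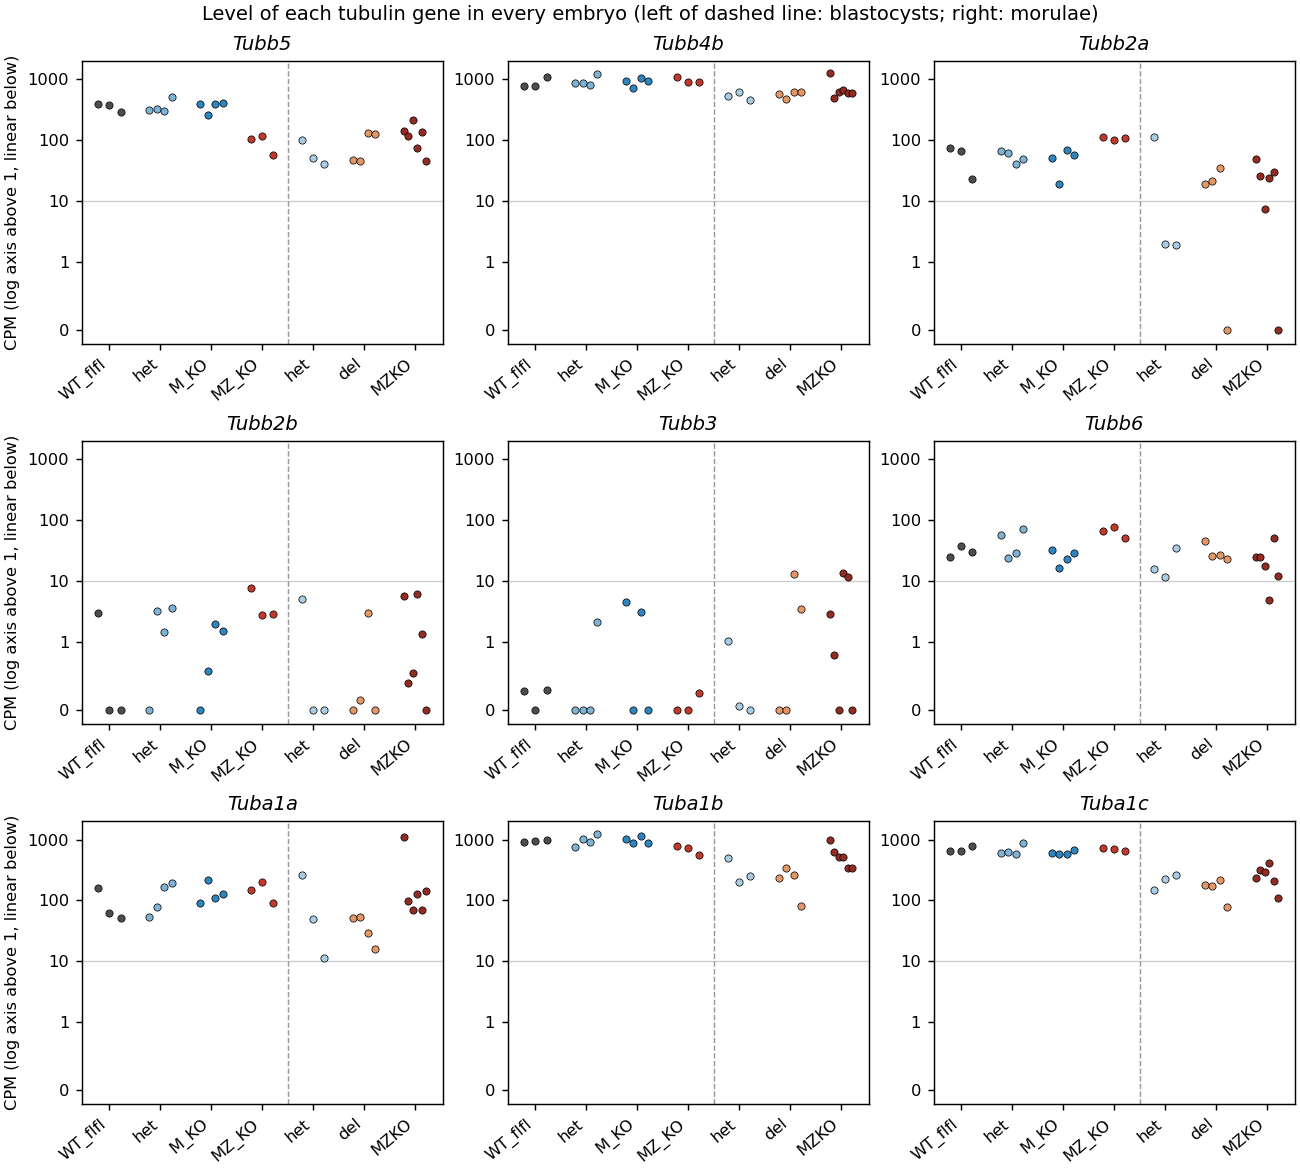
Level of each of the 9 tubulin genes in every embryo, in CPM on an axis that is logarithmic above 1 and linear below, with blastocyst groups left of the dashed line and morula groups right of it; each point is 1 embryo and the grey line marks 10 CPM. Tubb5 sits between 57.6 and 119 CPM in the 3 MZ_KO blastocysts and between 263 and 512 CPM in the other blastocysts, while Tubb2b and Tubb3 lie at or near 0 in most embryos.

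Tubb5, the beta isotype of dividing cells in many tissues (ENSMUSG00000001525, minus strand, chr17:35833921-35838306), was the member with the widest range of group means among blastocysts. In WT_flfl blastocysts 1, 7 and 9 its level was 398, 387 and 291 CPM. In het blastocysts 3, 5, 6 and 8 it was 316, 328, 298 and 512 CPM, and in M_KO blastocysts 1, 3, 4 and 5 it was 391, 263, 394 and 410 CPM. In MZ_KO blastocysts 2, 6 and 7 it was 104, 119 and 57.6 CPM. No MZ_KO embryo reached the level of any other blastocyst, and the other groups overlapped one another throughout. The mean was 93.6 ± 32.0 CPM (SD, n = 3) in MZ_KO, against 359 ± 58.8 in WT_flfl, 364 ± 99.9 in het and 364 ± 68.2 in M_KO.

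Fold changes are on the log2(CPM + 1) scale, which understates the change of low genes, and come from limma fitted on all 9585 genes that reached 10 CPM in at least 3 blastocysts. A gene is counted as higher or lower where its Benjamini-Hochberg adjusted p over all those genes was under 0.05, two-sided. Tubb5 was lower in MZ_KO by −1.98 (SE 0.26, limma adjusted p = 0.000136) against WT_flfl. It was lower by −1.98 (SE 0.24, limma adjusted p = 5.69e-05) against het and by −1.99 (SE 0.24, limma adjusted p = 6.91e-05) against M_KO. The ratios of mean CPM were 3.83-fold, 3.89-fold and 3.89-fold. These comparisons share the same 3 MZ_KO embryos and are not independent of each other. The call held without each embryo in turn. In RNA from a whole embryo, fewer cells of a type and less RNA per cell cannot be told apart.

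Some cell lineage markers of the blastocyst also differed in MZ_KO. The trophectoderm sums of MZ_KO overlapped those of het, and the primitive endoderm sums overlapped between all groups. The 8 trophectoderm markers, all in the table and none at 0 in any group, summed to between 3773 and 5049 CPM in MZ_KO, against 7153 to 7389 CPM in WT_flfl, 4748 to 7517 in het and 5507 to 9301 in M_KO. In each MZ_KO comparison 3 of the 7 tested trophectoderm markers, Eomes, Fgfr2 and Krt8, fell, and the other tested ones did not pass. Of all tested genes 8.36% fell against WT_flfl, 10.8% against het and 8.09% against M_KO. The 7 epiblast markers summed to between 757 and 1007 CPM in MZ_KO, and to between 425 and 742 CPM in the other blastocysts. Of the 6 tested epiblast markers, Nanog and Pou5f1 rose and Fgf4 fell against het, where 7.02% of all tested genes rose. Against WT_flfl and M_KO only Nanog passed, and it rose, where 4.84% and 3.74% of all tested genes rose. The 6 primitive endoderm markers in the table summed to between 212 and 313 CPM in MZ_KO, 241 and 361 in WT_flfl, 233 and 762 in het, and 273 and 391 in M_KO. All 6 were tested: Gata4 and Sox17 fell in each MZ_KO comparison, and Col4a1 fell against het. Gata6, Pdgfra and Lama1 did not pass in any of them. These marker lists are too short to read against the shares over all tested genes. The part of these lineages in the tubulin levels was not tested.

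Tubb4b, a broadly expressed beta isotype (minus strand, chr2:25222160-25224702), carried most beta-tubulin reads and did not pass the test in any comparison. Its level was 795, 777 and 1079 CPM in WT_flfl and 871, 885, 824 and 1242 CPM in het. It was 960, 729, 1044 and 944 CPM in M_KO and 1112, 899 and 920 CPM in MZ_KO. All 4 groups overlapped. The log2 differences of MZ_KO were 0.16 (SE 0.18) against WT_flfl, 0.05 (SE 0.17) against het and 0.09 (SE 0.17) against M_KO, with limma adjusted p of 0.610, 0.880 and 0.770.

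Tubb2a, a beta isotype best known from neurons (minus strand, chr13:34074274-34078007), was highest in the MZ_KO blastocysts. Its level was 74.8, 66.2 and 22.9 CPM in WT_flfl and 66.3, 60.9, 40.3 and 50 CPM in het. It was 51.6, 19.2, 69.0 and 57.7 CPM in M_KO and 114, 103 and 107 CPM in MZ_KO. Every MZ_KO embryo lay above every other blastocyst, yet the differences missed the threshold. They ran from 1.00 (SE 0.40, limma adjusted p = 0.0970) against het to 1.26 (SE 0.40, limma adjusted p = 0.0529) against M_KO, and the limma adjusted p against WT_flfl was 0.0905. Against M_KO the gene passed in 5 of 18 alternatives. These were voom weights, another weighting in limma (adjusted p = 0.0417), a pseudocount of 5 CPM (0.0460), a filter of 30 CPM (0.0449), median-ratio scaling (0.0492) and the fit without M_KO 4 (0.0441). With only the 2 groups compared in the fit, it passed against het (limma adjusted p = 0.0129).

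Tubb6, a beta isotype found outside the nervous system (plus strand, chr18:67390717-67402749), rose in MZ_KO against M_KO only, and that call rested on single embryos. Its level was 25.4, 37.4 and 29.9 CPM in WT_flfl and 58.0, 23.8, 29.6 and 72.0 CPM in het. It was 32.5, 16.3, 22.9 and 28.9 CPM in M_KO and 67.4, 77.7 and 50.7 CPM in MZ_KO. The MZ_KO embryos lay above every WT_flfl and M_KO embryo and overlapped het 3 and het 8. The log2 difference was 1.36 (SE 0.35, limma adjusted p = 0.0193) against M_KO, 1.05 (SE 0.38, limma adjusted p = 0.0755) against WT_flfl and 0.62 (SE 0.35, limma adjusted p = 0.242) against het. Without MZ_KO 2 the adjusted p against M_KO was 0.0626, and without MZ_KO 6 it was 0.0732. Whether the Tubb6 response differed between these comparisons was not tested.

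Tubb2b (minus strand, chr13:34126748-34130466) and Tubb3 (plus strand, chr8:123411424-123422015), both known for their roles in neurons, did not reach the filter in blastocysts. Tubb2b ran from 0 to 7.79 CPM and was at 0 in 4 of 14 blastocysts, with 7.79, 2.85 and 2.87 CPM in the MZ_KO embryos. Tubb3 ran from 0 to 4.66 CPM and was at 0 in 8 of 14 blastocysts. No test was made of either at this stage. Of the 9 members, 7 were therefore tested in blastocysts.

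**Figure D2:**
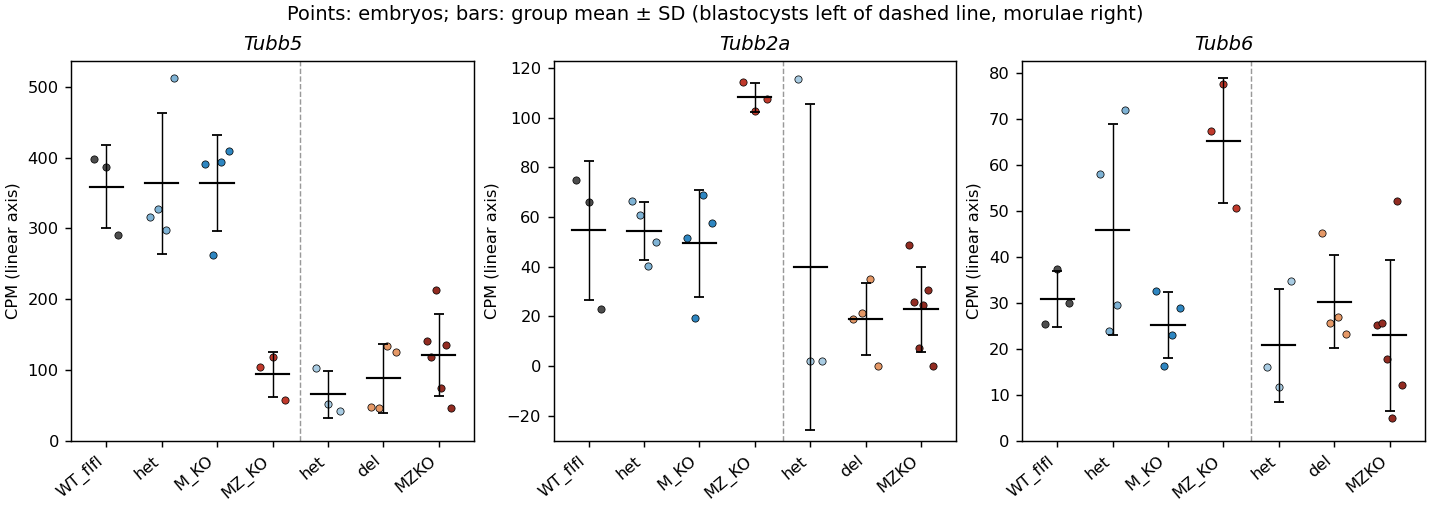
Tubb5, Tubb2a and Tubb6 in CPM on linear axes, 1 point per embryo, with bars for the group mean ± SD, blastocyst groups left of the dashed line and morula groups right of it. The 3 MZ_KO blastocysts lie below all other blastocysts for Tubb5 (57.6 to 119 CPM) and above them for Tubb2a (103 to 114 CPM), while for Tubb6 they overlap 2 of the 4 het embryos.

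The summed level of the 6 beta genes did not separate the blastocyst groups. It was 1249 ± 139 CPM in MZ_KO (SD, n = 3), 1329 ± 82.7 in WT_flfl (n = 3), 1422 ± 312 in het (n = 4) and 1361 ± 227 in M_KO (n = 4). Its makeup did differ. Tubb5 took 7.42%, 9.89% and 5.06% of the beta-tubulin reads in the MZ_KO embryos. It took 30.7%, 30.5% and 20.5% in WT_flfl, 24.1%, 25.2%, 25% and 27.2% in het, and 27.1%, 25.6%, 25.7% and 28.4% in M_KO. The MZ_KO shares lay below all others, without overlap. Corrected for exon length, the mean Tubb5 share was 4.74% in MZ_KO and 18.9%, 17.5% and 18.5% in WT_flfl, het and M_KO.

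The other genes made up the remainder. Tubb4b averaged 78.2% of beta-tubulin reads in MZ_KO against 66.1%, 67.4% and 67.8% in WT_flfl, het and M_KO. Tubb2a averaged 8.71% in MZ_KO and between 3.49% and 4.2% in the other groups, and Tubb6 averaged 5.24% against 2.34%, 3.14% and 1.83%. Shares of a sum are tied to each other, so a lower share of Tubb5 raises the rest by construction. No test was made of the shares.

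**Figure D3:**
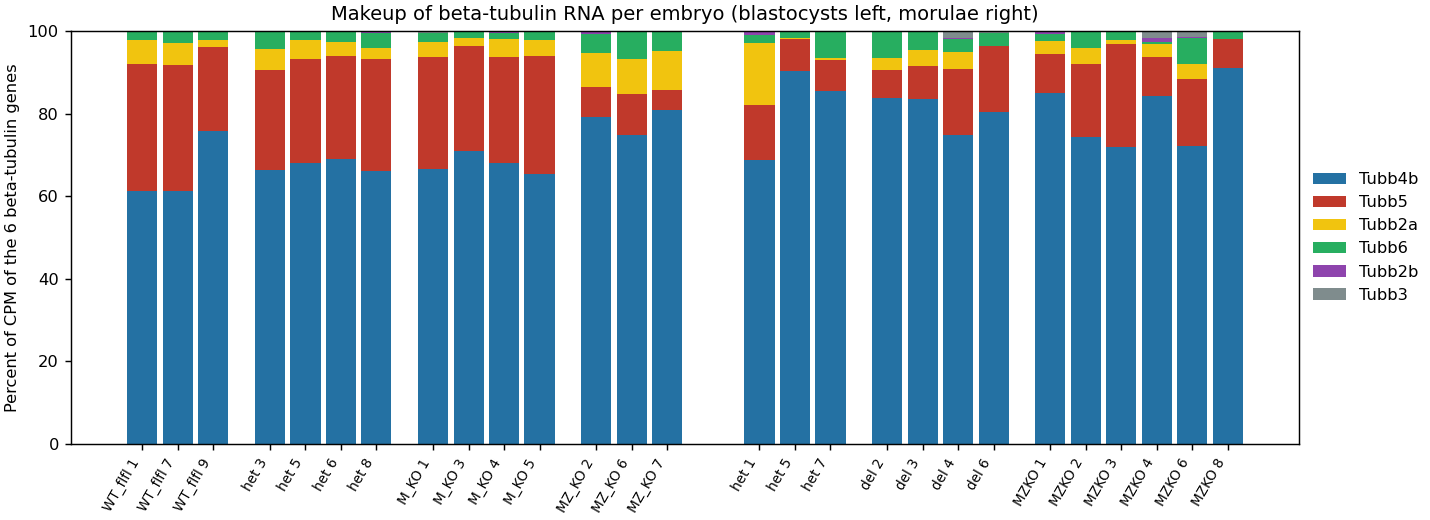
Stacked bars give the percent of the summed CPM of the 6 beta-tubulin genes that each gene takes in every embryo, blastocysts left and morulae right. Tubb5 takes 5.06% to 9.89% in the MZ_KO blastocysts and 20.5% to 30.7% in the other blastocysts, and Tubb4b takes the largest share in every embryo.

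Tuba1b, the alpha gene with the highest mean level in WT_flfl, het and M_KO blastocysts (minus strand, chr15:98931425-98934565), was lower in MZ_KO than in het and M_KO, by less than Tubb5. Its level was 925, 929 and 966 CPM in WT_flfl and 755, 1040, 900 and 1246 CPM in het. It was 1017, 862, 1126 and 894 CPM in M_KO and 786, 717 and 555 CPM in MZ_KO. The MZ_KO embryos lay below all WT_flfl and M_KO embryos and overlapped het 3. The log2 difference was −0.51 (SE 0.16, limma adjusted p = 0.0379) against het and −0.51 (SE 0.16, limma adjusted p = 0.0493) against M_KO. It was −0.47 (SE 0.17) and did not pass against WT_flfl (limma adjusted p = 0.0826).

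The Tuba1b calls were close to the threshold. The call against het was lost without het 5, het 6, het 8, MZ_KO 6 or MZ_KO 7, with adjusted p from 0.0525 to 0.160. The call against M_KO was lost without M_KO 1, M_KO 4, M_KO 5, MZ_KO 6 or MZ_KO 7, with adjusted p from 0.0608 to 0.197, and with voom weights (adjusted p = 0.0581). Of 18 alternatives, 10 ended the call against het and 14 the call against M_KO.

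Tuba1c (plus strand, chr15:99029891-99038110) and Tuba1a, the alpha isotype best known from developing neurons (minus strand, chr15:98949837-98953703), did not pass the test in blastocysts. Tuba1c was at 641, 643 and 777 CPM in WT_flfl, 609, 616, 575 and 882 in het, 611, 568, 586 and 664 in M_KO, and 718, 689 and 640 in MZ_KO. Its MZ_KO differences ran from −0.01 to 0.17, with limma adjusted p from 0.482 to 0.985. Tuba1a was at 162, 62.2 and 51.7 CPM in WT_flfl, 53.6, 77.0, 164 and 191 in het, 91.1, 215, 109 and 126 in M_KO, and 151, 202 and 89.5 in MZ_KO. Its groups overlapped widely, and its MZ_KO differences ran from 0.12 to 0.79, with limma adjusted p from 0.306 to 0.894. The summed alpha level was 1516 ± 201 CPM in MZ_KO (SD, n = 3), 1720 ± 81.2 in WT_flfl, 1777 ± 385 in het and 1717 ± 75.6 in M_KO.

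Of the 7 members tested in blastocysts, 0 rose and 1 fell in MZ_KO against WT_flfl, where 4.84% of all tested genes rose and 8.36% fell. Against het, 0 rose and 2 fell, where 7.02% of all tested genes rose and 10.8% fell. Against M_KO, 1 rose and 2 fell, where 3.74% of all tested genes rose and 8.09% fell. The members therefore went down in 1 or 2 of 7 cases, which is too few to read against those shares. Their median log2 difference was 0.16 against WT_flfl, 0.05 against het and 0.12 against M_KO, and the medians over all tested genes were −0.05, −0.06 and −0.03. The median member thus lay slightly above 0 while Tubb5 lay near −2 in each comparison. The plot of the fold changes shows this.

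**Figure D4:**
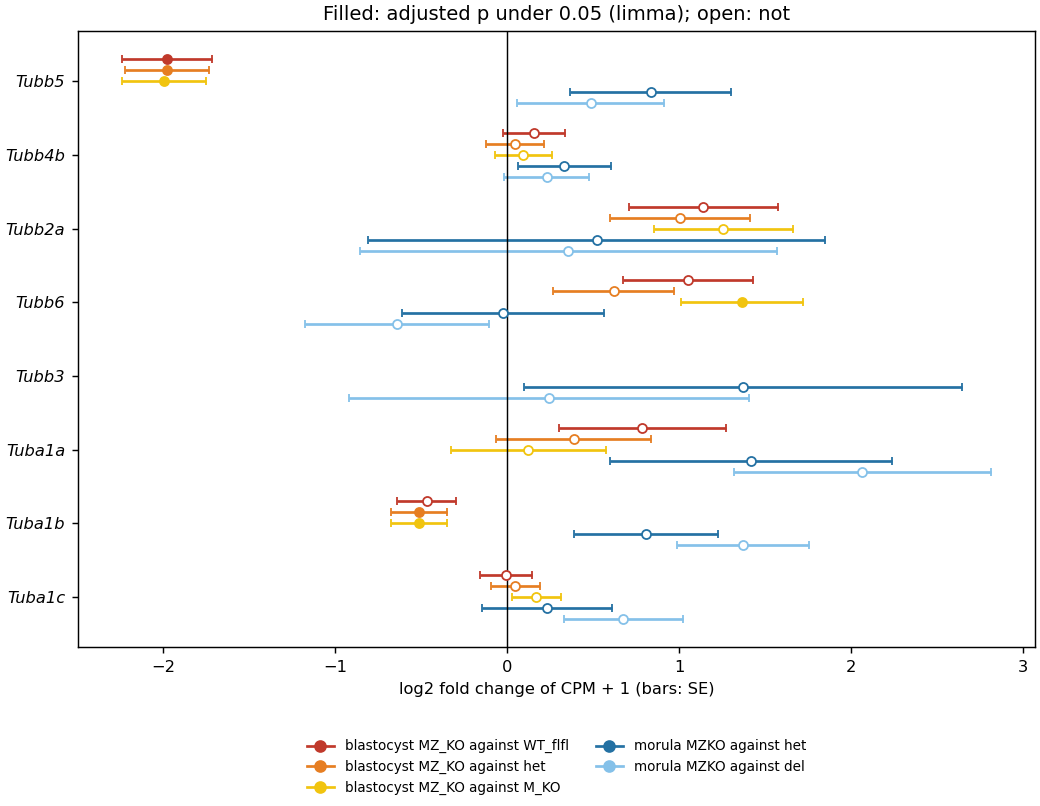
Log2 fold change of CPM + 1 for each tested member in 3 blastocyst and 2 morula comparisons, with bars for the standard error, filled where the limma adjusted p was under 0.05. Tubb5 lies near −2 in the 3 blastocyst comparisons and above 0 in both morula comparisons, where no member passed.

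No member passed the test among the M_KO, het and WT_flfl blastocysts. By limma, 0 of 7 members passed in M_KO against WT_flfl, with 0 at an unadjusted p under 0.05 and 0 by voom. In M_KO against het 0 of 7 passed, with 1 at an unadjusted p under 0.05 and 0 by voom. That gene was Tubb6, with a log2 difference of −0.75 (SE 0.33, limma adjusted p = 0.722). In het against WT_flfl 0 of 7 passed, with 0 at an unadjusted p under 0.05 and 0 by voom. Across all tested genes the share that passed was 0.0% in each of these 3 comparisons. Of all 9585 tested genes, 494, 638 and 187 were at an unadjusted p under 0.05, in the same order. The Tubb5 differences were 0.01 (SE 0.24) for M_KO against WT_flfl, 0.02 (SE 0.23) for M_KO against het and −0.00 (SE 0.24) for het against WT_flfl.

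In morulae 8 of the 9 members were tested. Tubb3 passed the filter through 3 embryos, del 4, MZKO 4 and MZKO 6, with 13, 13.8 and 11.9 CPM, and was at 0 in 5 of 13 morulae. Tubb2b, at 0 to 6.12 CPM, was not tested. By limma, 0 of 8 members passed in MZKO against het, with 0 at an unadjusted p under 0.05 and 0 by voom, where 0.482% of all tested genes passed. In MZKO against del 0 of 8 passed, with 2 at an unadjusted p under 0.05 and 0 by voom, where 0.181% of all tested genes passed. In del against het 0 of 8 passed, with 0 at an unadjusted p under 0.05 and 0 by voom. There 0.01% of all tested genes passed. Of all 9953 tested genes, 862, 821 and 503 were at an unadjusted p under 0.05 in these comparisons, in that order. The median log2 difference of the members was 0.66 in MZKO against het and 0.42 in MZKO against del, and the medians over all genes were −0.02 and 0.02. The member medians include Tubb3, at 1.37 (SE 1.27) and 0.24 (SE 1.16), which passed the filter only through del and MZKO embryos. They are therefore not read as a shift of the members.

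Tubb5 did not pass the test in morulae. Its level was 103, 52.2 and 41.2 CPM in het 1, 5 and 7 and 46.8, 45.7, 134 and 125 CPM in del 2, 3, 4 and 6. In the 6 MZKO morulae the lowest level was 45.7, the median 127 and the highest 213 CPM. The 3 groups overlapped. The log2 difference of MZKO was 0.83 (SE 0.47, limma adjusted p = 0.673) against het and 0.48 (SE 0.43, limma adjusted p = 0.794) against del. Tubb5 took 13.4%, 7.58% and 7.72% of beta-tubulin reads in the het morulae and 6.83%, 8.07%, 15.9% and 16.2% in del. In MZKO it took 14.2% ± 6.79 (SD, n = 6), from 7.06% to 25.1%, so these shares overlapped between the 3 groups.

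Tuba1b and Tuba1a were the members with an unadjusted p under 0.05 in MZKO against del. Tuba1b was at 231, 337, 257 and 80.7 CPM in del and at 501, 204 and 256 CPM in het. In MZKO the lowest level was 338, the median 522 and the highest 992 CPM, so that every MZKO morula lay above every del morula. The log2 difference was 1.37 (SE 0.38, limma adjusted p = 0.227) against del and 0.81 (SE 0.42, limma adjusted p = 0.621) against het. Tuba1a was at 52.1, 52.7, 29.5 and 16.3 CPM in del and at 260, 50.6 and 11.2 CPM in het. In MZKO it ran from 68.7 CPM through a median of 111 to 1093 CPM, again above every del morula.

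The Tuba1a difference was 2.06 (SE 0.75, limma adjusted p = 0.460) against del and 1.42 (SE 0.82, limma adjusted p = 0.684) against het. The highest Tuba1a levels belonged to MZKO 1 and het 1. These morulae had the highest oviduct and ciliated cell, blood and granulosa marker sums, and the lowest mitotic sums, given above. Ciliated cells are rich in tubulin. The part of ciliated cells, or of any of these other differences, in the tubulin levels was not tested. Without both embryos the Tuba1a difference was 1.96 (limma adjusted p = 0.118) against het and 1.48 (limma adjusted p = 0.242) against del.

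The remaining members overlapped between morula groups. Tubb4b was at 531, 622 and 456 CPM in het, 575, 473, 634 and 620 CPM in del, and from 497 through a median of 607 to 1255 CPM in MZKO. Tuba1c was at 148, 224 and 266 CPM in het, 181, 175, 213 and 77.8 CPM in del, and from 110 through a median of 263 to 406 CPM in MZKO. Tubb2a was at 116, 1.96 and 1.95 CPM in het, 19, 21.3, 35.1 and 0 CPM in del, and from 0 through a median of 25.1 to 48.6 CPM in MZKO. The Tubb2a level of het 1 was thus far above that of the other 2 het morulae. Tubb6 was at 15.9, 11.6 and 34.7 CPM in het, 45.2, 25.7, 26.9 and 23.2 CPM in del, and from 4.87 through a median of 21.4 to 52.2 CPM in MZKO.

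The difference between MZ knockout and het was itself compared between stages, over 8572 genes tested in both tables. Each difference was taken within its own table. Both differences cross title prefixes, so a difference between prefixes cannot be told apart from 1 between groups. Tubb5 differed by −2.81 (SE 0.58, limma adjusted p = 0.0101): the MZ knockout difference from het was −1.98 in blastocysts and 0.83 in morulae. It was the 1 of 7 members that passed, against 1.61% of all tested genes. At an unadjusted p under 0.05 were 2 members and 1521 of the 8572 genes. The Tubb5 call was lost without morula het 7 (log2 difference −2.54, limma adjusted p = 0.0502). Tuba1b differed by −1.32 (SE 0.50, limma adjusted p = 0.158), and passed without morula het 1 (−1.70, adjusted p = 0.0358). The median over the members was −0.29 and that over all genes 0.01.

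Ttc5, the autoregulation factor that binds nascent tubulin chains (ENSMUSG00000006288, minus strand, chr14:50765415-50785519), separated the MZ_KO blastocysts from all others. Its level was 67.5, 57.1 and 67.7 CPM in WT_flfl and 62.3, 52.4, 69.2 and 75.2 CPM in het. It was 72.5, 102, 48.9 and 54.0 CPM in M_KO. In the MZ_KO blastocysts it was 2.29, 0.276 and 1.81 CPM, from 55, 6 and 49 reads. The log2 difference of MZ_KO was −4.83 (SE 0.35, limma adjusted p = 4.01e-07) against WT_flfl. It was −4.84 (SE 0.33, limma adjusted p = 1.40e-07) against het and −4.89 (SE 0.33, limma adjusted p = 1.19e-07) against M_KO. The call held without each embryo in turn. With voom weights the adjusted p were 0.0341, 0.0274 and 0.0403. Ttc5 overlaps the processed pseudogene Gm10916 on the other strand.

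In morulae Ttc5 was at 48.5, 71.9 and 19.6 CPM in het and at 10.4, 9.15, 15.4 and 6.97 CPM in del. In MZKO 1, 2, 3, 4, 6 and 8 it was 48.0, 4.32, 0.0782, 14.4, 7.99 and 36.1 CPM. Every del morula lay below every het morula, and the MZKO morulae overlapped both. The log2 difference of MZKO against het was −1.98 (SE 0.90, limma adjusted p = 0.552), and −2.31 (adjusted p = 0.316) without het 1 and MZKO 1. That of del against het was −1.92 (SE 0.97, limma adjusted p = 0.998). The MZ knockout difference of Ttc5 from het differed between blastocysts and morulae by −2.86 (SE 1.05, limma adjusted p = 0.147), which did not pass. Over 27 alternatives that limma adjusted p ran from 0.0204 to 0.433. The other 5 genes of the autoregulation list, Scaper, Cnot11, Cnot1, Cnot7 and Cnot8, which link TTC5 to messenger RNA decay, did not pass in MZ_KO against het.

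**Figure D5:**
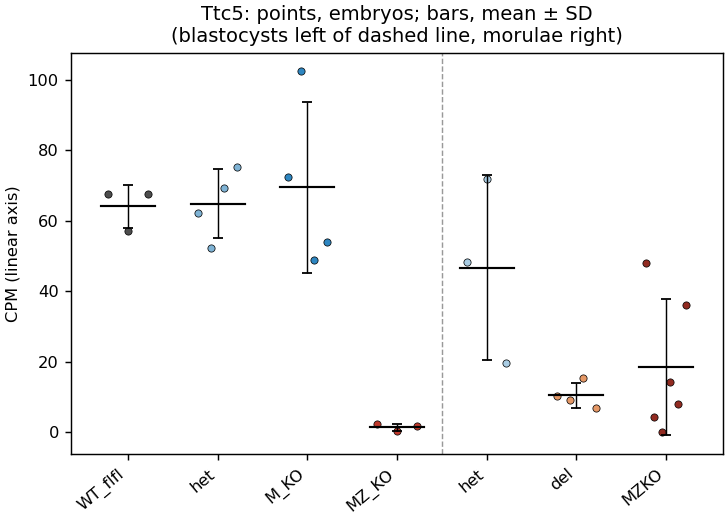
Ttc5 in CPM on a linear axis, 1 point per embryo, with bars for the group mean ± SD, blastocyst groups left of the dashed line and morula groups right of it. The 3 MZ_KO blastocysts lie between 0.276 and 2.29 CPM and the other blastocysts between 48.9 and 102 CPM, while the MZKO morulae spread from 0.0782 to 48.0 CPM.

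Other genes of the tubulin and microtubule pathways were read from 8 lists of 164 distinct genes, chosen by function. In MZ_KO against het, 10 of the 135 tested rose (7.41%) and 13 fell (9.63%), close to the shares over all genes. Against WT_flfl 7 rose and 9 fell, and against M_KO 4 rose and 5 fell. In MZKO against het morulae 0 of 137 passed by limma, with 13 at an unadjusted p under 0.05 and 0 by voom. Of all 9953 genes tested there, 862 were at an unadjusted p under 0.05. The values that follow are for MZ_KO against het blastocysts, where the median log2 difference over all genes was −0.06.

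Among 21 tested genes of tubulin folding, which pairs alpha with beta chains into dimers, 1 rose and 1 fell, with a median of 0.30. Arl2, a small GTPase of the dimer assembly machine, fell from 53.0 ± 11.3 CPM in het (SD, n = 4) to 25.1 ± 5.53 CPM in MZ_KO (n = 3), a log2 difference of −1.05 (SE 0.24, limma adjusted p = 0.00617). Tbcc, tubulin cofactor C, rose from 59.3 ± 8.89 to 97.8 ± 14 CPM, by 0.71 (SE 0.20, limma adjusted p = 0.0201), and lost the call without het 6 (adjusted p = 0.0634) or MZ_KO 2 (adjusted p = 0.0937). Among 13 tested genes of the gamma-tubulin ring complex and its anchors, which seed new microtubules, 0 rose and 1 fell, with a median of −0.56. That gene was Tubgcp2, a core subunit, at 95.2 ± 25.9 CPM in het and 44.7 ± 12.6 CPM in MZ_KO (log2 difference −1.07, SE 0.25, limma adjusted p = 0.00795).

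Of 10 tested enzymes that modify tubulin, 1 rose and 2 fell, with a median of −0.52. Hdac6, the tubulin deacetylase, fell by 1.47 on the log2 scale (limma adjusted p = 0.0222). Ttl, which adds tyrosine to the alpha-tubulin tail, rose by 1.31 (limma adjusted p = 0.0243), and Ttll12 fell by 0.80 (limma adjusted p = 0.0348). Each of these 3 calls was lost without at least 1 embryo. Of 32 tested microtubule-associated and severing proteins, 3 rose and 4 fell, with a median of 0.02. Camsap3 and Camsap2, which hold the minus ends of microtubules, went opposite ways: Camsap3 rose from 19.7 ± 4.88 to 54.8 ± 19.4 CPM (1.40, limma adjusted p = 0.00290) and Camsap2 fell from 25.3 ± 3.72 to 8.53 ± 2.12 CPM (−1.47, limma adjusted p = 0.00659). Clip1, a plus-end protein, fell from 26.1 ± 9.07 to 7.71 ± 2.67 CPM (−1.63, limma adjusted p = 0.00675), and Ckap2, a spindle protein, fell from 82.7 ± 12.5 to 39.9 ± 7.77 CPM (−1.04, limma adjusted p = 0.00429).

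Of 35 tested kinesin and cytoplasmic dynein genes, 3 rose and 3 fell, with a median of 0.15. Kif1b rose by 1.35, Klc4 fell by 1.15, and Dctn1 and Kif15 each fell by 0.75, with limma adjusted p of 0.0367, 0.0398, 0.0175 and 0.0450. All 4 lost the call without at least 1 embryo. Of 15 tested genes of mitotic phases, 2 rose and 1 fell, with a median of −0.26. Ube2c rose by 0.68 and Aurka by 0.44, with limma adjusted p of 0.0379 and 0.0173, and both lost the call without at least 1 embryo. Cdc20 fell from 719 ± 113 to 455 ± 63.6 CPM (−0.66, limma adjusted p = 0.00307). Of the 18 genes named in these lists, Ttc5 included, 8 held the call without each embryo in turn, and 10 lost it without at least 1 embryo.

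The tables held further tubulin genes, 8 in blastocysts and 7 in morulae. In blastocysts Tuba4a, Tubd1, Tube1 and Tubg1 were tested, and in morulae Tuba3a, Tuba4a, Tubd1 and Tubg1. By limma 0 of 4 passed in each MZ_KO comparison, and 0 by voom. At an unadjusted p under 0.05 were 2, 2 and 0 against WT_flfl, het and M_KO. Among all 9585 tested genes 2753, 3058 and 2544 were under it. In MZKO against het morulae 0 of 4 passed, with 0 at an unadjusted p under 0.05 and 0 by voom. Tubg1, the gamma-tubulin gene, was at 81.2 ± 42.5 CPM in MZ_KO (SD, n = 3) and 117 ± 33.5 CPM in het blastocysts (n = 4). Tuba4a, an alpha isotype, was at 442 ± 80.1 CPM in MZ_KO and 381 ± 104 CPM in het. Tuba3a, Tuba3b, Tuba8 and Tubg2 did not reach the filter in blastocysts.

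The genes beside Tubb5 were read in a window of 250 kb on each side, set after the Tubb5 values were known. Of 41 other annotated genes, 17 were tested. By limma 0 of 17 passed in each MZ_KO comparison, and 0 by voom. At an unadjusted p under 0.05 were 5, 2 and 4 against WT_flfl, het and M_KO. Among all 9585 tested genes 2753, 3058 and 2544 were under it, and 1265, 1711 and 1133 passed by limma. The log2 differences of the 17 ran from −1.62 to 1.00 against WT_flfl, −1.28 to 0.63 against het and −1.48 to 0.39 against M_KO. Their lowest limma adjusted p were 0.0901, 0.0989 and 0.114. Mdc1 had the lowest difference each time (SE 0.67, 0.63 and 0.63). The Tubb5 differences were −1.98, −1.98 and −1.99, below those ranges. The window was placed around the member with the widest range of group means, so its place outside them is a description. Whether Tubb5 differed from Mdc1 was not tested.

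Among the genes whose level followed Tubb5 most closely over the 14 blastocysts were Gorasp2, Rpa1, Trappc5 and Fabp5, with Pearson r from 0.954 to 0.986 on the log2(CPM + 1) scale. Gorasp2, a Golgi stacking protein, was at 36.6 ± 9.19 CPM in MZ_KO (SD, n = 3) and 158 ± 29.5 CPM in het (n = 4). Rpa1, a subunit that binds single-stranded DNA, was at 27 ± 4.92 and 102 ± 14.4 CPM. Over the 13 morulae the genes closest to Tuba1a were Wt1, Cd81, Foxj1, Mettl7a1 and AC160336.1, with r from 0.946 to 0.956. Foxj1 is the master regulator of motile cilia and 1 of the oviduct and ciliated cell markers. These correlations are descriptions: the points share their library scaling, the blastocyst values follow the low MZ_KO group, and the morula values follow het 1 and MZKO 1.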

How the data were processed

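Polyadenylated RNA of whole single CD1 mouse embryos was copied using the SMART-Seq Ultra Low Input kit and sequenced on a HiSeq instrument. The 2 tables the authors deposited, 1 for each stage, hold log2 values. The tools were RSEM 1.3.1, Bowtie2 2.2.9 and cutadapt 1.14, on GRCm38 and mm10, per the submitters' processing notes. The role of each tool was not given in the sources used. Values behaved as log2 CPM with an offset of 0.5 reads, and removing it gave whole reads for 100% of values within 0.01 reads. Of 28 labelled samples 27 had a column, and the repeat library of blastocyst het 3, labelled with the batch of the morulae, was not analysed here. The 0 columns of other samples needed no exclusion, and 3 entries of the blastocyst table that name no gene, at most 0.0113% of reads, were left out. Of the genes, 15575 of 15582 and 16731 of 16745 matched GENCODE M21, whose build is that of the files.

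The design had assumed linear normalized values. Because the tables were log2, CPM was recovered and limma 3.58.1 (R 4.3.3, trended variance, all groups of a stage in 1 fit) was run on log2(CPM + 1) for genes that reached 10 CPM in 3 or more embryos. Figures and tables were made with Python 3.11.15 and matplotlib 3.10.9. The fit was also run on simulated reads with changes of known size and the same spread setting for every gene. The spread of these embryos differs between genes, so that run does not give the error rates here. The labels do not say which embryos share a mother, so p-values measure only the spread between these embryos. The members and the gene lists were chosen with earlier results of these data known. Named beside the members were all other tubulin genes, up to 4 called genes of each list with the largest fold change in MZ_KO against het or in MZKO against het, and the 5 genes closest in pattern to the member with the widest range of group means at each stage. Of what this rule names, 1 gene is not reported here. The granulosa and cumulus list had 1 of 8 genes in the blastocyst table and 3 of 8 in the morula table, and the testis and sperm list had 0 of 8 in both. Pseudocounts, filters, scaling, voom weights, the variance trend, the groups in the fit, a replicate block and left-out embryos were varied.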

Additional observations from a re-analysis of the deposited data

Results flagged for a closer look

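Each of the 9 genes was read in each group of 4 to 6 embryos, which gave 36 sets of values. In 9 of the 36 sets, 1 embryo lay far from the rest by Dixon's test, which marks about 1 in 20 by chance. The sets share the same embryos and some lie near 0 CPM, so the count cannot be read against that rate. Blastocyst het 8, the deepest library, was marked 4 times. Its Tubb5 was 512 CPM against 298 to 328 in the other het blastocysts, its Tubb4b 1242 against 824 to 885, its Tuba1c 882 against 575 to 616, and its Tubb3 2.18 against 0. In M_KO 3 Tubb5 was 263 CPM, against 391 to 410 in the other M_KO blastocysts.

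In the morula MZKO 1, Tubb4b was 1255 CPM against 497 to 668 in the other MZKO morulae, and Tuba1a was 1093 CPM against 68.7 to 143. In del 4 Tubb2b was 3.02 CPM against 0 to 0.142, and in del 2 Tubb6 was 45.2 CPM against 23.2 to 26.9. The Tubb5 difference between MZ knockout and het embryos differed between blastocysts and morulae by −2.81 on the log2 scale (limma adjusted p = 0.0101), by a test of that difference.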

How the results depend on the processing

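No log2 difference of a member reversed a call under any alternative: 1374 kept their side of the threshold, 31 were no longer called and 9 became called. The count of members called in MZ_KO against WT_flfl was 2 with only the compared groups in the fit. Against het it was 1 with no filter on low values, 1 without a variance trend, 1 without WT_flfl 1 and het 6, and 1 to 2 leaving out single embryos. Against M_KO it was 4 with a pseudocount of 5 CPM or a filter of 30 CPM, 1 to 3 leaving out single embryos, and 1 without MZ_KO 6. For the difference between stages it was 0 to 2 leaving out single embryos, and 2 without the morulae het 1 and MZKO 1, a setting chosen after seeing the data. With the embryo number as a replicate block, the counts were 0 against het, 0 against M_KO and 0 for the difference between stages. Tubb5 then differed by −2.34 (limma adjusted p = 0.0492) against WT_flfl, −1.71 (0.0675) against het, −1.93 (0.119) against M_KO and −2.15 (0.702) between stages, and 17 of the 18 named list genes lost their call, all but Ttc5. The labels do not give the numbers as pairs, and same-numbered embryos of a stage carry different title prefixes. Their deviations had correlations from −0.186 to 0.00577 over 5 pairs of blastocysts and from −0.120 to 0.734 over 5 pairs of morulae. The value of 0.734 was that of het 1 and MZKO 1, the morulae that stood apart, and the next was 0.140. The cause of the changes in the calls was not tested. Per kilobase of the longest transcript instead of all exons, 16 levels moved by 1 SD or more and 47 by less, and Tubb4b led Tuba1b in WT_flfl blastocysts, at 553 against 539 CPM per kb. The del 6 library limits the low genes of its group, and groups of 3 to 6 embryos limit the precision of all values.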
